A study of Mus musculus with 8 samples.

Results

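Small RNAs of male mouse primordial germ cells (mPGCs) at E13.5 were compared with those at E12.5. The libraries were chosen by their titles, and 4 of the 8 in the series qualified, 2 for each stage. The other 4, mPGCs at E15.5 and D6 SGET mPGCLCs, entered the fit across all groups, and E15.5 is given beside the other stages for 1 class of reads. Gonads were separated from the mesonephros, and mPGCs of both stages came from GOF18ΔPE-EGFP mice, whose transgene drives EGFP from a Pou5f1 promoter fragment active in germ cells. The labels give C57BL/6J as the strain and sorting on SSEA1 and CD61, while the study's methods give a mixed FVB/C57BL/6J background and sorting on EGFP. The labels list no treatment for either stage. Embryos were pooled for each replicate, and replicates came from different litters, so spread between embryos cannot be seen. HiSeq and NovaSeq instruments are both named without assignment to libraries, and no sequencing batch could be separated from stage.

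Germ cells reach the gonad before E12.5, and in males they enter mitotic arrest in the days that follow. At these stages they still carry abundant miRNAs, which load into Argonaute proteins and pair with targets mainly through the seed, bases 2 to 8 from the 5′ end. Germ cells also make piRNAs, which are longer, mostly begin with U, carry a methylated 3′ end and bind PIWI proteins. In fetal testis, piRNAs come from transposon-rich loci and also from mRNA 3′ untranslated regions (3′UTRs). The library protocol prolonged the 3′ ligation, which favours RNAs with a 2′-O-methyl 3′ end.

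The deposited counts summed to 7447873 and 13614516 reads at E12.5, against 12043363 and 19734948 at E13.5, with lengths of 15 to 43 nt. They fell on 194195 and 197981 distinct sequences at E12.5, against 218581 and 280397 at E13.5. No molecular identifiers were used and the random bases at the read ends had been trimmed, so PCR copies count as reads, and intervals and floors cover counting error only. A share is the percent of all reads of a library. For any share in the composition of the libraries, the 95% Wilson interval extended at most 0.0359 percentage points to either side. With 2 libraries against 2, the smallest p of a two-sided exact permutation test is 0.333, so single shares were compared by whether the stages overlapped. Counts of many features were tested with the quasi-likelihood test of edgeR, adjusted over each whole table by the Benjamini-Hochberg method, with adjusted p under 0.05 as the threshold. The SE given with a log2 fold change was derived from that test, as its absolute value over the square root of the F statistic. It is approximate, above all for features with few reads.

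miRNAs that mark cell types were examined first, in reads per 1000000 reads of the library (RPM). Genes of the Mir290 and Mir302 clusters mark pluripotent and early germ cells, and the 11 taken as markers summed to 38536 and 60326 RPM at E12.5, against 31314 and 44783 at E13.5. The stages overlapped, and Mir292 was the most abundant gene. Of the red blood cell markers, Mir451a had 0 reads in every library, Mir144 had reads only in E13.5 replicate 2 (71 reads), and the 4 genes together had 0 and 248 reads at E12.5, against 0 and 377 at E13.5. The white blood cell markers summed to 2108 and 5182 reads at E12.5, against 325 and 3014 at E13.5, led by Mir155. As shares of all reads, both E13.5 libraries lay below both E12.5 libraries, and 1 of the 4 tested genes, Mir155, was lower without overlap. Mir155 held most of the summed reads. Mir142 (86 and 298 reads at E12.5, against 0 and 383 at E13.5), Mir150 (62 and 15, against 0 and 28) and Mir223 (0 and 0, against 0 and 57) overlapped. The endothelial Mir126a stood at 17.5 and 45.8 RPM at E12.5, against 36.6 and 60.1 at E13.5, with overlapping stages. Stromal and smooth muscle markers summed to 223 and 249 RPM at E12.5, against 157 and 838 at E13.5, led by the Mir199 group, and E13.5 replicate 2 was the highest of the 4 libraries. Mir214 was the only one of these 4 groups with both E13.5 libraries above both E12.5 libraries. Mir140 and Mir202, found in gonadal support cells, summed to 389 and 593 RPM at E12.5, against 461 and 936 at E13.5. Mir202 alone was higher at E13.5 without overlap. Of all 325 miRNA groups tested, 18.5% were higher and 11.1% lower without overlap. None of the markers passed the edgeR test, and the part that other cell types had in the differences described here was not tested. In these bulk samples, fewer cells of a type and less RNA per cell cannot be told apart.

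Reads that matched annotated miRNA transcripts made up 14.2% and 22.9% of all reads at E12.5, against 15.8% and 23.2% at E13.5. The replicates of each stage differed more than the stages, which overlapped. Other annotated small RNAs held 3.13% and 5.79% at E12.5, against 2.18% and 5.55% at E13.5, most of them fragments of small nucleolar RNAs (snoRNAs) with 2.38% and 4.74% at E12.5, against 1.56% and 4.47% at E13.5. Again the stages overlapped, with replicate 1 low at both stages. Reads matching protein-coding transcripts made up 5.05% and 4.50% at E12.5, against 7.03% and 8.58% at E13.5, so both E13.5 libraries lay above both E12.5 libraries (ratio of means 1.64, exact permutation p = 0.333). Most reads matched no annotated transcript, 75.1% and 64.8% at E12.5, against 72.8% and 61.0% at E13.5, with overlapping stages. By length, 15–19 nt held 56.9% and 46.0% at E12.5, against 56.0% and 36.4% at E13.5. Reads of 20–24 nt held 29.8% and 37.7% at E12.5, against 30.8% and 37.7% at E13.5. Neither length range separated the stages. The 25–30-nt range held 7.38% and 9.30% at E12.5, against 10.7% and 16.7% at E13.5 (ratio 1.64). For 31–43 nt the share was 5.99% and 7.03% at E12.5, against 2.51% and 9.17% at E13.5. Reads of 43 nt alone, the longest length, held 1.83% and 3.68% at E12.5, against 0.633% and 4.07% at E13.5. Only the 25–30-nt range was without overlap, and E13.5 replicate 2 was its highest library. Protein-coding matches of 25–30 nt were 0.727% and 0.765% of all reads at E12.5, against 3.22% and 5.08% at E13.5, a ratio of 5.56. At 20–24 nt the order was the opposite, with 0.774% and 0.813% at E12.5, against 0.536% and 0.623% at E13.5, and both E13.5 libraries lay below both E12.5 libraries.

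Reads of 20–24 nt that matched an annotated miRNA transcript exactly were assigned to genes, and genes that shared at least 50% of their reads were joined into groups. Such reads numbered 954681 and 2804670 at E12.5, against 1755844 and 4195075 at E13.5. Of 2202 annotated miRNA genes, reads fell on 478 groups, and 325 groups passed the count filter. Whether stages overlapped was judged on shares, also where read counts are given. Both E13.5 libraries lay above both E12.5 libraries for 60 groups (18.5% of those tested) and below for 36 (11.1%). As a share of miRNA reads in place of all reads, where shares sum to 100 in every library, the counts were 69 (21.2%) above and 57 (17.5%) below. In edgeR's quasi-likelihood test, 0 groups were higher and 0 lower (0% each) at adjusted p under 0.05. At unadjusted p under 0.05 there were 4, all higher at E13.5. DESeq2 called 4 higher and 1 lower, and edgeR with TMM normalization called 2 higher, Mir470 and Mir871. The median log2 fold change (E13.5 minus E12.5) over all tested groups was 0.10, and TMM scaling shifted it by −0.14 and miRNA reads as library size by −0.13. With 1 library left out it lay between −0.89 and 1.12. Without E13.5 replicate 2, edgeR called 0 higher and 2 lower, Mir433 and Mir541.

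**Figure D1:**
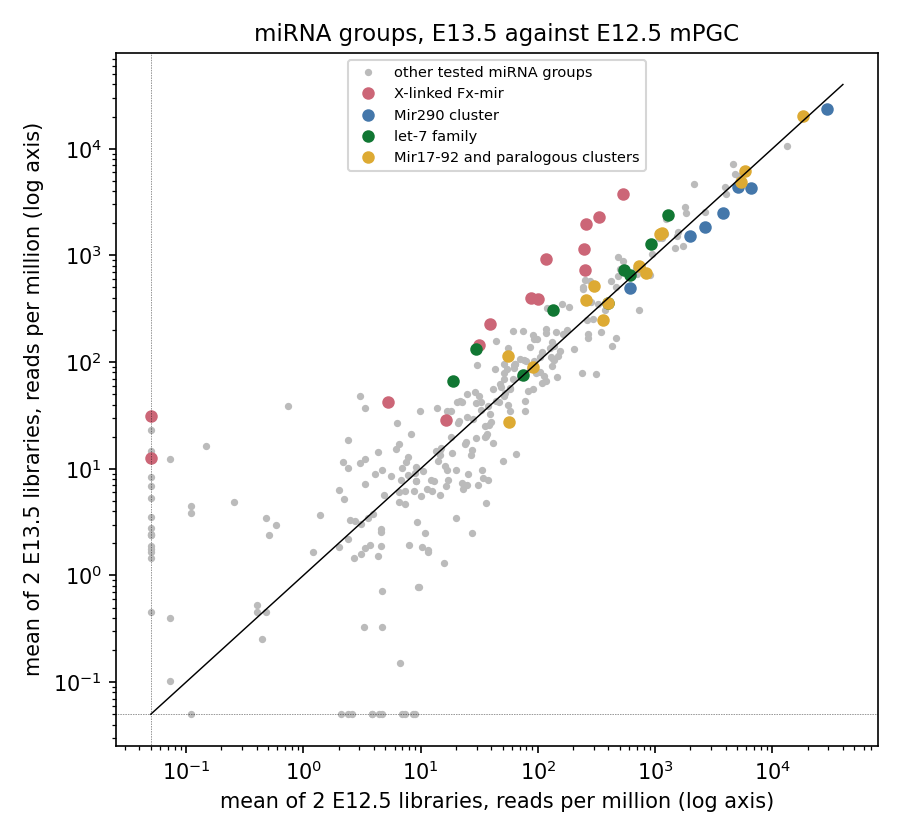
Mean RPM of each tested miRNA gene group at E12.5 (x axis) and E13.5 (y axis), both on log scales, with 1 point per group, colours for 4 of the lists and a diagonal at equal means. Groups with no reads at a stage are drawn on the dotted lines at 0.05 RPM, and the Fx-mir groups lie above the diagonal, with Mir871 and Mir470 among the most abundant of them.

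A few genes held most miRNA reads at both stages. The 10 most abundant groups at E12.5 held 59.7% and 58.3% of miRNA reads at E12.5, against 53.9% and 50.1% at E13.5, a direction that the choice by E12.5 level favours, and 9 of these groups were also among the 10 most abundant at E13.5. Mir292, of the Mir290 cluster, was the most abundant with 2.35% and 3.49% of all reads at E12.5, against 2.03% and 2.67% at E13.5 (log2 fold change −0.31, SE 0.43, adjusted p = 0.998). Mir92-1, from the Mir17-92 cluster known for driving proliferation, followed with 1.42% and 2.23% at E12.5, against 1.80% and 2.24% at E13.5. The stages overlapped for both. Mir183, of a cluster best known from sensory organs, held 1.05% and 1.62% at E12.5, against 1.06% and 1.08% at E13.5. Mir30d held 0.322% and 0.644% at E12.5, against 0.400% and 0.768% at E13.5, and for it and Mir183 the stages overlapped. Mir92-2 was the only gene of the top 10 whose stages did not overlap as shares of all reads. It held 0.525% and 0.550% at E12.5, against 0.490% and 0.478% at E13.5, with a log2 fold change of −0.15. As shares of miRNA reads Mir92-2 overlapped, while Mir292, Mir290a, Mir293, Mir183 and Mir93 were lower and Mir125a was higher without overlap. On that scale 57 of all 325 groups were lower and 69 higher, and the choice by E12.5 level again favours lower values. The other 5 of the top 10 (Mir290a, Mir93, the Mir103 pair, Mir293 and Mir125a) had log2 fold changes from −0.61 to 0.64. Adjusted p was 0.998 for every one of the 10. Mature sequences of the leading arms, from RefSeq (GRCm38.p6, 34 of 37 names looked up were matched), show which of the abundant genes share a seed, printed in capitals. They are grouped by seed.
miR-292a-5p: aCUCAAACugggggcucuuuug
miR-290a-5p: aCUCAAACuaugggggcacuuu
miR-293-5p: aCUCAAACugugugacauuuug
miR-293-3p: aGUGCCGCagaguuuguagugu
miR-92a-3p: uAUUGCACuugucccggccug
miR-183-5p: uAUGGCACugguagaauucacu
miR-93-5p: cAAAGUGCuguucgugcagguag
miR-103-3p: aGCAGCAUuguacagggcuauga
miR-125a-5p: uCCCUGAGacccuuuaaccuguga
The CUCAAAC seed belongs to 3 of the Mir290 cluster arms, among them miR-292a-5p (chr7:3219200-3219221, plus strand), which held 76.7% of the Mir292 reads. For Mir293 the 3p arm led, with 72.8% of its reads. Mir92-1 and Mir92-2 give the same mature miR-92a-3p, from chromosomes 14 and X.

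Counted by bases 2 to 8 of the reads themselves, over all miRNA reads of 20–24 nt, the order of the leading seeds differed between stages. This count was added after the values had been seen and was not tested. CUCAAAC held 17.8% and 17.2% of miRNA reads at E12.5, against 13.6% and 13.0% at E13.5, and AUUGCAC, the seed of miR-92a and miR-92b, held 15.1% and 13.9% at E12.5, against 15.9% and 13.1% at E13.5. CUCAAAC ranked first at E12.5 and AUUGCAC at E13.5 by mean share, with non-overlapping stages for the first and overlapping stages for the second. The miR-30 seed GUAAACA took the next rank at both stages, with 6.72% and 8.56% at E12.5, against 6.55% and 9.66% at E13.5. AAAGUGC, shared by Mir93, Mir17, Mir20a and Mir106b, held 4.89% and 5.24% at E12.5, against 5.14% and 5.26% at E13.5. Both seeds overlapped between stages. AAGUGCU, carried by Mir294, Mir295 and Mir291a, held 4.07% and 3.04% at E12.5, against 2.31% and 2.19% at E13.5, lower at E13.5 without overlap. Among the 10 leading seeds at E12.5, 6 were lower without overlap, against 33 of the 100 leading seeds, a direction that the choice by E12.5 level favours. Only CCCUGAG of the 10, the seed of miR-125, against 24 of the 100, was higher at E13.5 without overlap, with 2.78% and 2.78% at E12.5, against 3.54% and 4.22% at E13.5. Further down, the let-7 seed GAGGUAG held 2.74% and 2.10% at E12.5, against 3.38% and 3.16% at E13.5, and the miR-26 seed UCAAGUA 2.17% and 2.16% at E12.5, against 3.67% and 3.15% at E13.5. Both were higher at E13.5 without overlap (ratios of means 1.35 and 1.58).

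The Mir290 cluster on chromosome 7 is the main miRNA cluster of mouse embryonic stem cells and is also active in early germ cells. Of its 9 annotated genes 7 had reads and were tested, and together they held 3.89% and 6.10% of all reads at E12.5, against 3.17% and 4.53% at E13.5, with overlapping stages. Of miRNA reads, they held 30.4% and 29.6% at E12.5, against 21.8% and 21.3% at E13.5. On that second scale all 7 genes were lower at E13.5 without overlap, against 57 of all 325 groups. On the first scale this held for 1 gene of 7, Mir294, against 36 of 325. The median log2 fold change of the 7 was −0.40, against 0.10 over all tested groups, and all 7 were negative under each scaling tried. The related Mir302 cluster was far less abundant, at 0.00716% and 0.0109% at E12.5, against 0.00272% and 0.00365% at E13.5. Of its 3 tested genes, Mir302b (30.5 and 51.9 RPM at E12.5, against 18.3 and 16.9 at E13.5) and Mir302d (39.2 and 35.6 RPM at E12.5, against 7.39 and 8.21 at E13.5) were lower at E13.5 without overlap, and the median was −1.23. None of these genes passed the test. Mir155, the only white blood cell marker without overlap, was also lower at E13.5 as a share of reads (1960 and 4869 reads at E12.5, against 325 and 2546 at E13.5). The part of white blood cells in these values was not tested.

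The Fx-mir cluster is a rapidly evolving set of miRNA genes on the X chromosome, known for expression in the testis. Of 22 annotated genes, 19 had reads, in 15 groups, all on the minus strand of chrX:66776757-66839125, a span of 62.4 kb. Mir201, Mir547 and Mir509 had no reads. The cluster held 0.137% and 0.268% of all reads at E12.5, against 0.942% and 1.48% at E13.5. Of miRNA reads it held 1.07% and 1.30% at E12.5, against 6.46% and 6.98% at E13.5. Both E13.5 libraries lay above both E12.5 libraries on both scales, with a ratio of means of 5.99 on the first. Of the 14 groups tested, 13 were higher at E13.5 without overlap, against 60 of all 325 (18.5%), and 0 were lower. The median log2 fold change was 2.66, against 0.10 over all tested groups, and all 14 were positive under each scaling tried. The exception was Mir880, with 125 and 222 reads at E12.5, against 0 and 1132 at E13.5. None of the 14 passed the edgeR test with library totals.

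**Figure D2:**
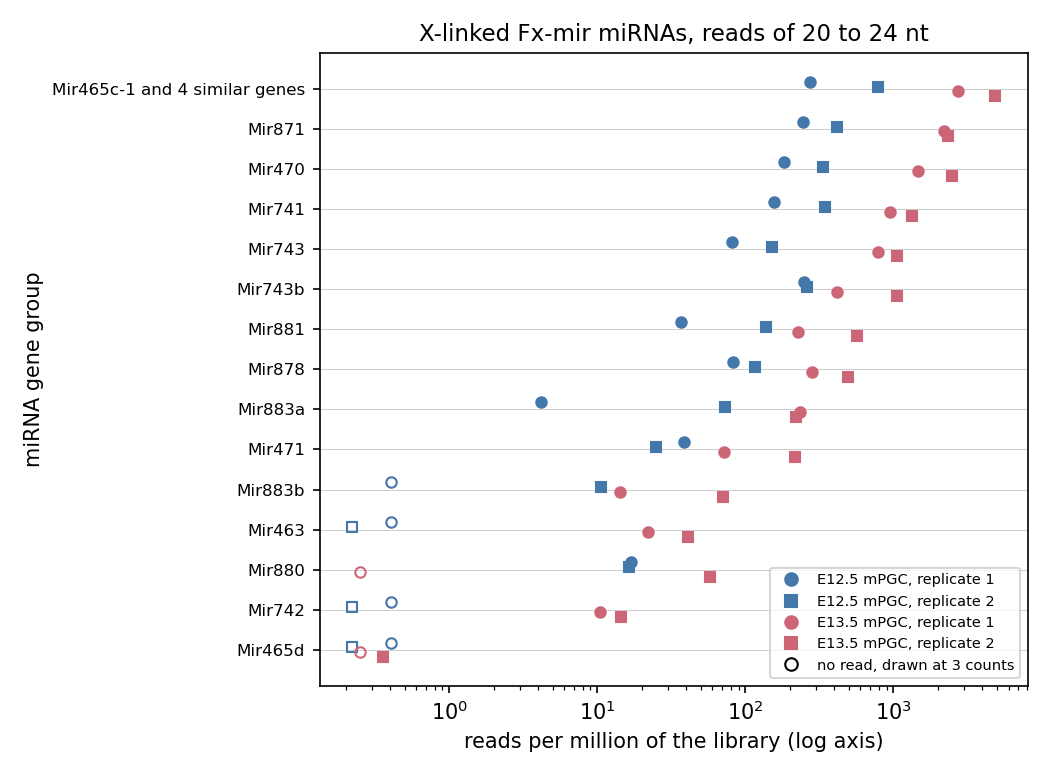
RPM of each Fx-mir group in the 4 libraries, on a log scale, with 1 symbol per library and open symbols drawn at 3 counts where there was no read. In 13 of the 14 tested groups both E13.5 libraries lie above both E12.5 libraries, and Mir880 has 0 reads in E13.5 replicate 1.

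Within the cluster, Mir871 had 1840 and 5660 reads at E12.5, against 26579 and 46104 at E13.5 (log2 fold change 2.78, SE 0.66, adjusted p = 0.179). Mir470 had 1355 and 4570 reads at E12.5, against 17693 and 49104 at E13.5 (log2 fold change 2.93, SE 0.74, adjusted p = 0.179). For both, the lowest E13.5 share was above the highest E12.5 share by a factor of 5.31 and 4.38, respectively. Over all alternative fits, adjusted p ranged from 2.30e-05 to 0.997 for Mir871 and from 5.96e-05 to 0.997 for Mir470. Both passed in edgeR with TMM normalization, in DESeq2 and with miRNA reads as library size, and neither passed when any 1 of the 4 libraries was left out, although the log2 fold changes in those fits were at least 2.45 for both. The Mir465 genes share their reads and were joined as 1 group of 5 genes, with 2039 and 10788 reads at E12.5, against 32757 and 96386 at E13.5 (log2 fold change 2.83, SE 0.99, adjusted p = 0.998). This group passed with miRNA reads as library size (adjusted p = 0.0271), and not with TMM or DESeq2 (0.0553 and 0.0815). With replicate as a block, the Mir465 group, Mir871 and Mir470 all passed. Without single libraries the log2 fold change of the Mir465 group ranged from 2.26 to 3.80. Its reads were the most abundant of the cluster, and E13.5 replicate 2 held the most. Mir743 had 603 and 2072 reads at E12.5, against 9504 and 20846 at E13.5, and Mir743b had 1843 and 3546 reads at E12.5, against 4977 and 20745 at E13.5. Mir741 had 1163 and 4675 reads at E12.5, against 11492 and 26307 at E13.5. The stages did not overlap for any of these genes. Mir463 had 0 and 0 reads at E12.5, against 264 and 805 at E13.5. With 3 counts taken as the floor, the mean share of Mir463 was at least 100.6-fold higher at E13.5. Mir742 was also without reads at E12.5 and had 126 and 287 reads at E13.5, and it was among the groups called by DESeq2. Mir883a differed widely between the E12.5 replicates, with 31 and 999 reads, and had 2808 and 4338 at E13.5. As shares of all reads its stages did not overlap. The leading arms are shown because this cluster held the groups with the smallest p, with seeds in capitals and positions from RefSeq GRCm38.p6.
miR-871-3p: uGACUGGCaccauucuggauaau
miR-470-5p: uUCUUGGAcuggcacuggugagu
miR-465a/b/c-3p: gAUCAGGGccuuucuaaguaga
miR-465c-5p: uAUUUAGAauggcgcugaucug
miR-463-5p: uACCUAAUuuguuguccaucau
The first lies at chrX:66810438-66810460, minus strand, and the second at chrX:66813995-66814017, minus strand. None of the 5 shares its seed with another printed here. miR-871-3p held 91.8% of the Mir871 reads and miR-470-5p 99.8% of the Mir470 reads. For the Mir465 group, reads were divided between the arms, with 47.4% on the 3p sequence, of which 48.8% began at the printed first base, and 44.4% on miR-465c-5p. E13.5 replicate 2 also held the highest level of stromal markers. Among these, Mir214 (0.269 and 5.80 RPM at E12.5, against 10.9 and 85.5 at E13.5) was higher at E13.5 without overlap. The same held for Mir202 of gonadal support cells (149 and 174 RPM at E12.5, against 272 and 430 at E13.5). The summed markers of both cell types overlapped between stages, and the part of these cells was not tested.

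The let-7 family promotes differentiation and is held back in pluripotent cells by LIN28 proteins. Its 12 genes fell into 9 groups, all tested, which held 0.361% and 0.449% of reads at E12.5, against 0.516% and 0.687% at E13.5, with both E13.5 libraries above both E12.5 libraries. Of the 9, 5 were higher without overlap and 0 lower, against 60 and 36 of all 325, with a median of 0.47. Mirlet7e was the most abundant, with 9453 and 18150 reads at E12.5, against 27925 and 49104 at E13.5 (log2 fold change 0.89, SE 0.62, adjusted p = 0.998). Mirlet7b was at 250 and 351 reads at E12.5, against 1206 and 3207 at E13.5, and neither gene overlapped between stages. Mirlet7e sits in a locus of 692 bases with Mir99b and Mir125a, at chr17:17830188-17830879. Mir125a held 0.355% and 0.567% at E12.5, against 0.535% and 0.898% at E13.5, and Mir99b held 0.0705% and 0.179% at E12.5, against 0.107% and 0.328% at E13.5. Unlike Mirlet7e, both neighbours overlapped between stages on this scale. The Mir10, Mir99, Mir100 and Mir125 families, the last related to nematode lin-4, had a median of 0.80 over 7 groups, with 0 above and 0 below. Their summed share of miRNA reads was 3.57% and 3.90% at E12.5, against 4.56% and 6.33% at E13.5, higher at E13.5 without overlap. Of all reads it was 0.458% and 0.804% at E12.5, against 0.665% and 1.35% at E13.5, and the stages overlapped.

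The imprinted Dlk1-Meg3 region on chromosome 12 carries a large miRNA cluster expressed from the maternal allele. Of its 66 genes, reads fell on 50 groups and 41 were tested. Without overlap, 9 were higher at E13.5 and 1 lower, against 60 and 36 of all 325, and the median was 0.54. Summed, the cluster held 0.0722% and 0.129% of reads at E12.5, against 0.104% and 0.179% at E13.5, with overlapping stages. Of miRNA reads it held 0.563% and 0.625% at E12.5, against 0.714% and 0.843% at E13.5, higher at E13.5 without overlap. Mir379 had 126 and 600 reads at E12.5, against 761 and 2497 at E13.5 (log2 fold change 1.64, SE 0.75, adjusted p = 0.998), and Mir543 had 478 and 1621 reads at E12.5, against 2157 and 3553 at E13.5. Both were higher at E13.5 without overlap. Without single libraries the log2 fold change of Mir379 ranged from 1.05 to 2.49. The imprinted Sfmbt2 cluster on chromosome 2, expressed from the paternal allele, comprises many near-identical genes whose reads cannot be separated. Of its 119 genes, 39 had no reads and the rest fell into 18 groups. The 15 tested groups had a median of −0.80, with 0 higher and 3 lower without overlap, against 60 and 36 of all 325. In sum it held 0.226% and 0.322% of reads at E12.5, against 0.224% and 0.266% at E13.5, and the stages overlapped. Of miRNA reads it held 1.76% and 1.56% at E12.5, against 1.54% and 1.25% at E13.5, lower at E13.5 without overlap.

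The Mir17-92 cluster and its paralogues had 14 groups tested, with 3 higher and 2 lower without overlap (over all 325 groups 60 and 36) and a median of 0.10, as over all groups. They held 2.76% and 4.20% of reads at E12.5, against 3.32% and 4.20% at E13.5, and the stages overlapped. The Mir183 cluster had 0 higher and 1 lower of 3, Mir96, with a median of −0.32. As a share of miRNA reads, all 3 were lower without overlap, against 57 of all 325. The Mir29 and Mir148 families, known to target DNA methyltransferases, had 1 higher and 0 lower of 5 and a median of 0.59, with positive log2 fold changes in all 5. Summed, they overlapped between stages as a share of all reads and were higher without overlap as a share of miRNA reads. Mir34 and Mir449 together held 0.00810% and 0.00570% at E12.5, against 0.00698% and 0.00825% at E13.5, with 1 higher and 0 lower of 3 (60 and 36 of all 325) and a median of −0.03. The Mir200 family, which supports epithelial identity by repressing ZEB factors, had 1 higher and 2 lower of 5, against 60 and 36 of all 325, with a median of 0.17. With TMM the median was 0.02, and with miRNA reads as library size, where only 4 of the 5 were tested, it was −0.77. The summed family held 0.0613% and 0.0780% of reads at E12.5, against 0.0314% and 0.0492% at E13.5, and both E13.5 libraries lay below both E12.5 libraries. Mir200c and Mir429 were the members lower without overlap.

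Several single genes were lower at E13.5 without passing the test. Mir200c stood at 446 and 484 RPM at E12.5, against 170.1 and 168 at E13.5 (log2 fold change −1.46, SE 0.72, adjusted p = 0.998). Mir92b, which shares its seed with the far more abundant Mir92-1, stood at 211 and 266 RPM at E12.5, against 73.8 and 83.2 at E13.5 (log2 fold change −1.60, SE 0.79, adjusted p = 0.998). Neither overlapped between stages, and the ratios of means were 0.364 and 0.329. Their arms are shown to set miR-92b beside miR-92a, with seeds in capitals, from RefSeq GRCm38.p6.
miR-92a-3p: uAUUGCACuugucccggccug
miR-92b-3p: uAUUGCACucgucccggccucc
miR-200c-3p: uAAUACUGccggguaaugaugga
Mir1843a had 66 and 112 reads at E12.5 and Mir7647 97 and 67, and both had 0 reads in both E13.5 libraries, at least 42.6-fold and 44.7-fold lower at the floor of 3 counts. For both of these genes the reads of the E12.5 replicates came from opposite arms. Mir7070 had 33 and 59 reads at E12.5 and 0 in both E13.5 libraries, at least 21.9-fold lower.

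Annotated small RNAs other than miRNAs gave reads on 456 groups, of which 277 were tested. Both E13.5 libraries lay above both E12.5 libraries for 12 (4.33%) and below for 27 (9.75%). edgeR's quasi-likelihood test called 0 higher and 0 lower (0% each) at adjusted p under 0.05, with 2 at unadjusted p under 0.05, both lower. DESeq2 called 1 higher, Gm24809, and without E13.5 replicate 2 edgeR called 4 lower. The median log2 fold change was −0.27, which TMM shifted by 0.12 and DESeq2 by 0.22. The U3 snoRNA group, led by Rnu3b1, guides processing of ribosomal RNA and was among the most abundant, at 0.363% and 0.547% of reads at E12.5, against 0.367% and 0.375% at E13.5. The stages overlapped. The snoRNA gene Gm23212 held 0.314% and 0.583% at E12.5, against 0.221% and 0.526% at E13.5, and Gm24452 held 0.112% and 0.286% at E12.5, against 0.0395% and 0.282% at E13.5. In both, replicate 1 was low at E13.5, and the stages overlapped. A spliceosomal group of 95 snRNA genes that includes Rnu1a1 and Rnu1b1 held 0.167% and 0.245% at E12.5, against 0.178% and 0.215% at E13.5, and the 5S rRNA group, with Rn5s, held 0.121% and 0.129% at E12.5, against 0.0513% and 0.232% at E13.5. The stages overlapped for both. Among the classes, mitochondrial tRNAs had 18 groups tested, 6 of them lower without overlap and 0 higher, against 27 and 12 of all 277, with a median of −1.15. Their summed share was 0.0249% and 0.0845% at E12.5, against 0.00693% and 0.0467% at E13.5, and it overlapped between stages. snoRNAs had 218 groups tested, 7 higher and 16 lower, with a median of −0.25. Y RNAs, which yield fragments in many cell types, held 0.209% and 0.183% at E12.5, against 0.131% and 0.219% at E13.5, with overlapping stages. RNase P RNA, at 15.7 and 9.48 RPM at E12.5, against 18.4 and 22.5 at E13.5, was higher at E13.5 without overlap, and 7SK, 7SL, vault RNA and RNase MRP RNA overlapped.

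The lowest p among the other small RNAs belonged to features with few reads. Gm23451 and 7 similar snoRNA genes had 170 and 169 reads at E12.5, against 0 and 2 at E13.5 (log2 fold change −8.10, SE 3.21, adjusted p = 0.998), and without single libraries the log2 fold change ranged from −10.87 to −7.32. The mitochondrial mt-Tm had 59 and 1000 reads at E12.5, against 3 and 124 at E13.5, and CT010467.1 had 88 and 2 reads at E12.5, against 0 and 61 at E13.5. As shares of all reads, Gm23451 and mt-Tm were lower at E13.5 without overlap, and CT010467.1 overlapped. In the other direction, Gm23497 had 1 and 0 reads at E12.5, against 175 and 20 at E13.5, and the Snora81 pair had 0 and 0 reads at E12.5, against 0 and 64 at E13.5. Gm26165 had 1 and 1 reads at E12.5, against 0 and 460 at E13.5, so nearly all of them came from E13.5 replicate 2. Gm23547 had 65 reads and Gm24809 52, all in that library. Snora15 had 103 and Gm26083 16, all in E12.5 replicate 2. Nuclear tRNAs were not in the annotation used and were not counted.

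Reads were divided by length and 5′ nucleotide into 108 classes, with no reads of 41 or 42 nt. Reads of 40 nt held 0.190% and 0.137% at E12.5, against 0.0567% and 0.216% at E13.5, less than those of 43 nt in every library. The 43-nt classes may thus hold RNAs longer than 43 nt that were cut at the read end, which was not tested. Both E13.5 libraries lay above both E12.5 libraries for 7 classes (6.48%) and below for 8 (7.41%). edgeR's quasi-likelihood test called 5 higher (4.63%) and 0 lower (0%). The 5 were the 5′-U classes of 26, 27, 28, 29 and 30 nt, and the same 5 were called by DESeq2 and with only the 2 stages in the fit. Over distinct sequences in place of reads 7 were called. The median over all classes was −0.13, which TMM shifted by 0.19 and DESeq2 by 0.40, and with TMM the 27- and 28-nt classes passed. The 27-nt 5′-U share was 0.280% and 0.354% at E12.5, against 1.48% and 2.39% at E13.5 (log2 fold change 2.61, SE 0.49, adjusted p = 5.58e-04). The 28-nt share was 0.276% and 0.332% at E12.5, against 1.18% and 2.01% at E13.5 (log2 fold change 2.39, SE 0.48, adjusted p = 6.68e-04). Both rose from E12.5 to E13.5, and E13.5 replicate 2 was the highest library in each. The 29-nt 5′-U class stood at 0.242% and 0.250% at E12.5, against 0.690% and 1.32% at E13.5 (log2 fold change 2.03, SE 0.45, adjusted p = 0.00203). The 30-nt class stood at 0.134% and 0.160% at E12.5, against 0.390% and 0.764% at E13.5 (log2 fold change 1.97, SE 0.45, adjusted p = 0.00261). At 26 nt it was 0.462% and 0.758% at E12.5, against 1.53% and 2.19% at E13.5 (log2 fold change 1.61, SE 0.47, adjusted p = 0.0355). These classes rose as well, by the least at 26 nt. Without E13.5 replicate 2, 0 classes passed, while 2 passed without E12.5 replicate 1, 3 without E12.5 replicate 2 and 4 without E13.5 replicate 1. The log2 fold changes in these fits ranged from 1.96 to 2.72 at 28 nt, 1.49 to 2.43 at 29 nt, 1.40 to 2.37 at 30 nt and 1.30 to 2.01 at 26 nt. Over all alternatives, the 27-nt log2 fold change ranged from 2.22 to 2.99 and its adjusted p from 4.45e-08 to 0.158.

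**Figure D3:**
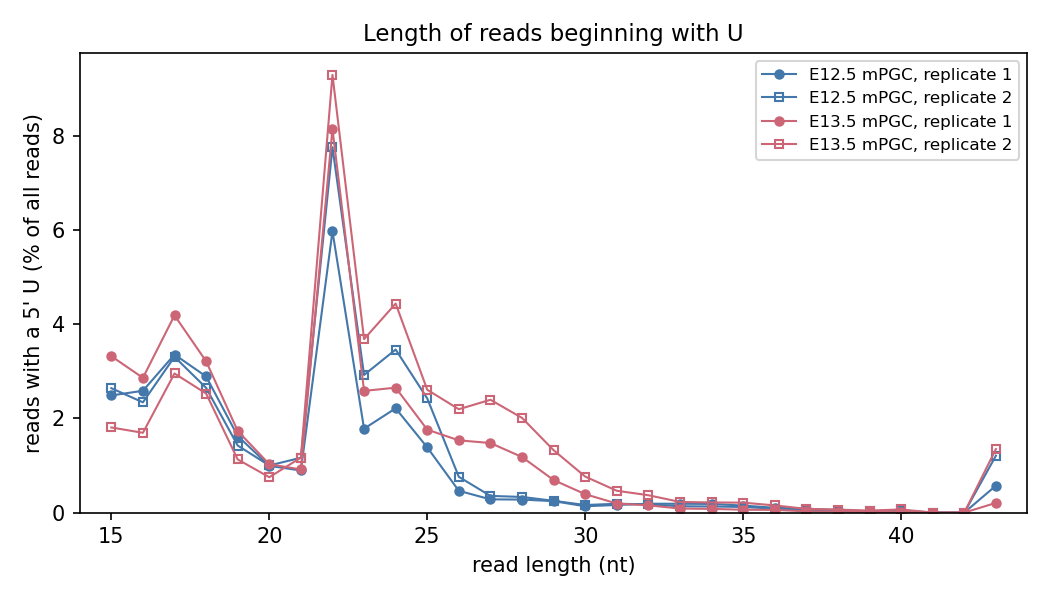
Share of 5′-U reads at each length, in percent of all reads, with 1 line per library. The E13.5 lines lie above the E12.5 lines from 26 to 31 nt, and at 27 nt they stand at 1.48% and 2.39% against 0.280% and 0.354%.

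Outside these 5 classes none passed the test. The miRNA-sized 22-nt 5′-U class held 5.97% and 7.75% at E12.5, against 8.14% and 9.29% at E13.5 (log2 fold change 0.35, SE 0.47, adjusted p = 0.997). The 31-nt 5′-U class held 0.161% and 0.187% at E12.5, against 0.192% and 0.463% at E13.5. Both lay higher at E13.5 without overlap and without passing the test. At 25 nt, just below the called range, the 5′-U share was 1.38% and 2.42% at E12.5, against 1.76% and 2.61% at E13.5, with overlapping stages. The 17-nt class held 3.35% and 3.30% at E12.5, against 4.18% and 2.95% at E13.5, and the 43-nt class 0.571% and 1.21% at E12.5, against 0.206% and 1.35% at E13.5. The stages overlapped in both, and in the last replicate 1 was low at both stages. Of the 8 classes lower at E13.5, 6 began with G, at 20, 21, 23, 24, 25 and 26 nt, and 2 began with A, at 21 and 35 nt. The largest of them, 21-nt 5′-A, held 2.22% and 2.48% at E12.5, against 1.84% and 2.15% at E13.5, and 20-nt 5′-G held 1.41% and 1.01% at E12.5, against 0.930% and 0.785% at E13.5. Their log2 fold changes were −0.24 and −0.49. Over all lengths together, the most frequent was 17 or 22 nt at E12.5 and 15 or 22 nt at E13.5, depending on the replicate, while within 25–30 nt it was 25 nt in all 4 libraries.

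Together, 5′-U reads of 26–30 nt made up 1.40% and 1.85% of all reads at E12.5, against 5.27% and 8.68% at E13.5. Where these reads matched was compared next, as percent of the reads in this class. Protein-coding transcripts held 12.7% and 10.7% at E12.5, against 44.9% and 43.5% at E13.5, and reads without an annotated transcript 67.0% and 67.8% at E12.5, against 48.9% and 49.2% at E13.5. Neither overlapped between stages. In number, the reads without an annotated transcript were 69633 and 171075 at E12.5, against 310179 and 843756 at E13.5. Their percent of the class was thus lower while the class itself was larger. Over distinct sequences in place of reads, the stages did overlap, with protein-coding percents of 6.86% and 14.1% at E12.5, against 8.28% and 25.4% at E13.5. At E15.5 the protein-coding percent was 10.7% and 10.8%, below both E13.5 libraries. miRNA matches made up 3.71% and 4.52% of the class at E12.5, against 0.713% and 0.740% at E13.5, and snoRNA matches 5.67% and 8.93% at E12.5, against 0.761% and 1.74% at E13.5. These percents were lower at E13.5 without overlap, in a class whose own size was larger. Of all reads of the library, protein-coding matches in this class were 0.177% and 0.199% at E12.5, against 2.37% and 3.78% at E13.5, a ratio of means of 16.3. At E15.5 this share was higher still, at 5.64% and 5.91%. An A at position 10, which marks pairing partners in the ping-pong cycle of piRNA amplification, was present in 12.6% and 11.9% of the class at E12.5, against 22.9% and 23.6% at E13.5. It was higher at E13.5 without overlap. Other bases and positions were not counted, so these percents cannot show an excess of A at position 10 over the base composition of the class. The matches that made up the class also differed between stages, and pairing between reads was not tested. Of the protein-coding matches, 3′UTRs held 41.7% and 28.4% at E12.5, against 50.9% and 50.9% at E13.5, and coding sequence held 29.7% and 35.8% at E12.5, against 41.7% and 42.5% at E13.5. Noncoding transcripts of these genes held 23.8% and 30.4% at E12.5, against 1.85% and 1.81% at E13.5, and 1 Rpl5 sequence made up most of those reads at E12.5 (2077 and 5974). With the noncoding part left out of the sum, 3′UTRs held 54.7% and 40.8% at E12.5, against 51.9% and 51.9% at E13.5, and the stages overlapped there and in coding sequence. On the same sum, 5′ untranslated regions held 6.34% and 7.71% at E12.5, against 5.69% and 4.85% at E13.5, lower without overlap.

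By gene, counting reads that matched a single protein-coding gene, 26–30-nt 5′-U reads fell on 167 and 588 genes at E12.5, against 831 and 3211 at E13.5, of 21951 protein-coding genes annotated. These per-gene values are a description and were not tested. Of the 100 genes with the highest mean share at E13.5, 96 had both E13.5 libraries above both E12.5 libraries, a direction that the choice by E13.5 level favours, and 28 had no reads at E12.5. Of all 3716 genes with such reads at either stage, 575 were above and 11 below. The top 10 held 7.44% and 5.95% of the class in the E13.5 libraries. D10Wsu102e led with 3 and 36 reads at E12.5, against 14889 and 29460 at E13.5. Abl2, a cytoskeletal tyrosine kinase gene, had 1 and 3 reads at E12.5, against 5019 and 9660 at E13.5, and Eif4ebp2, which encodes a repressor of cap-dependent translation, had 75 and 4 reads at E12.5, against 4424 and 7931 at E13.5. Of the reads of these 3 genes at E12.5 and E13.5, nearly all came from E13.5. Pou2f1, encoding the transcription factor OCT1, had 0 and 5 reads at E12.5, against 3225 and 8844 at E13.5. In D10Wsu102e and Pou2f1, 99.1% and 99.4% of the E13.5 reads lay in the 3′UTR, and in Abl2 and Eif4ebp2 92.8% and 96.3%. Others in the top 10 were housekeeping genes whose reads lay mainly in coding sequence. The elongation factor genes Eef1g and Eef2 had 0 and 5 reads at E12.5, against 3867 and 6487 at E13.5, and 0 and 3 reads at E12.5, against 3679 and 5609 at E13.5, respectively. The ferritin gene Fth1 had 0 and 2 reads at E12.5, against 2296 and 6170 at E13.5. Of their E13.5 reads, 92.3%, 83.5% and 68.2% lay in coding sequence. The exception in the top 10 was Rpl5, a ribosomal protein gene with 2127 and 6170 reads at E12.5, against 5113 and 11959 at E13.5, whose stages overlapped and whose main read lay in a noncoding transcript of the gene.

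Of the distinct sequences behind the protein-coding matches, few were seen in both replicates. E13.5 replicate 1 held 1476 and replicate 2 10263, and 128 were in both. These 128 made up 8.67% and 1.25% of the distinct sequences and 11.3% and 2.99% of the reads. By contrast, 22-nt 5′-U sequences found in both libraries held 96.7% and 94.3% of the reads of that class. The median count per distinct sequence of the protein-coding matches was 169.5 and 63.0, so most of these sequences had many reads in 1 library and none in the other. For 4 of the genes above, a leading sequence found in both E13.5 libraries is copied from the deposited files to show its length and first base, with that base in capitals.
D10Wsu102e: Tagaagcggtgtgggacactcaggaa
Eif4ebp2: Tggtctctcccgcctgctcagctcttt
Fth1: Tggaactgcacaaactggctactgaca
Eef1g: Tgataaagatggctggtccctgtggta
In the E13.5 libraries these had 99 and 173, 244 and 323, 385 and 380, and 505 and 284 reads, in that order. None had a read at E12.5. The genes lie at chr10:83360221-83488505, chr10:61428491-61452661, chr19:9980598-9985098 and chr19:8967041-8978479 (GRCm38), with Eif4ebp2 on the minus strand and the others on the plus strand.

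Among reads without an annotated transcript, those ending in CCA, the 3′ end of mature tRNAs, were counted after the values had been seen, because nuclear tRNAs were not in the annotation. They made up 7.94% and 9.95% of all reads at E12.5, against 10.3% and 10.8% at E13.5. At 22 nt they held 2.17% and 2.05% at E12.5, against 3.42% and 3.28% at E13.5 (ratio of means 1.59). Both were higher at E13.5 without overlap (exact permutation p = 0.333 for each). At 17 and 18 nt the shares were 1.53% and 2.08% at E12.5, against 2.17% and 2.13% at E13.5, and 2.01% and 2.10% at E12.5, against 2.43% and 2.39% at E13.5. These also stood higher at E13.5, by smaller ratios, and their origin in tRNA genes was not tested.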

How the data were processed

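Small RNA of 4 mPGC libraries, 2 at each stage, was compared, with 4 further libraries of the series in each fit. The authors removed adapters and 4 random bases (cutadapt 3.2), aligned the reads to GRCm38 (STAR 2.5.3a) and deposited unnormalized counts for every distinct mapped sequence. From these, reads were matched exactly to GENCODE M21 transcripts, and 20–24-nt reads in miRNA transcripts were assigned to miRNA genes. Genes sharing at least 50% of reads were joined. Counts of miRNA groups, other small RNA groups, and classes of length and 5′ nucleotide went into the quasi-likelihood test of edgeR 4.0.16 under R 4.3.3 (4 groups in 1 fit, file totals as library size, default filter, Benjamini-Hochberg adjustment), and into DESeq2 1.42.0 as an alternative. Both were tested on simulated data. Shares and exact tests came from Python 3.11.15 with scipy 1.17.1, pandas 2.3.3 and numpy 2.4.6, and plots from matplotlib 3.10.9. A count of 0 was bounded at 3 counts.

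The samples and lists were chosen with earlier results of these data known. Named miRNA groups were the 10 with the highest mean share at E12.5, those with the smallest p in each direction, and the most abundant member of each list. Named other groups were the 5 most abundant and the 5 with the smallest p in each direction. Named classes were those called, the 22-nt and 27-nt 5′-U classes, and the highest class of each length range. Further list members, markers, seeds and classes without overlap were named after their values had been seen. Mir29 was read as the Mir29a, Mir29b and Mir29c genes only, and names absent from GENCODE were mapped through RefSeq synonyms. The correlation between replicates of the same number was 0.057 for miRNA groups, 0.236 for other groups and 0.080 for classes, and a fit with replicate as a block was run as an alternative. Other alternatives were TMM normalization, only the 2 stages in the fit, other filters, other length ranges, miRNA reads as library size, distinct sequences, and leaving out each library. Nuclear tRNAs, positions outside annotated transcripts and molecular identifiers were not used here. Some features chosen by these rules were left out of the text, and 1 gene is not reported here.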

Additional observations from a re-analysis of the deposited data

How the results depend on the processing

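The filter at a mean of 50 CPM, the overlap counts by share of miRNA reads, and the matches of 26–30-nt 5′-U reads over distinct sequences or without noncoding transcripts were added after the data had been seen. Leaving out a library leaves 1 library at that stage, which is assumed to vary like the other groups. Replicates of the same number are different litters. Replicate 1 had fewer reads and a lower snoRNA share than replicate 2 at both E12.5 and E13.5. Whether replicate number marks a batch was not tested. In the edgeR fit with library totals 0 miRNA groups were called higher, against 2 with TMM, 4 with DESeq2, 3 with miRNA reads as library size and 3 with replicate as a block (Mir871, Mir470 and the Mir465 group). For miRNA groups called lower, DESeq2 gave 1 and leaving out single libraries 0 to 2, against 0. For other small RNAs, DESeq2 called 1 higher and leaving out libraries gave 0 to 4 lower, against 0. Of the 5 classes called, 2 held with TMM and 0 to 4 without single libraries, and distinct sequences gave 7. As shares of miRNA reads, 57 groups were lower without overlap, against 36. The protein-coding share had a ratio of 2.24 over reads of 20 to 43 nt and 1.21 over distinct sequences, against 1.64. The cause was not tested for any of these.

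The following log2 fold changes reversed sign. With TMM they were −0.067 for Mir93, −0.037 for the Mir103 pair, −0.021 for Mir148a, −0.044 for the Mir669c group, 0.39 for the Rnu3b1 group, 0.11 for Gm23212 and 0.54 for the Gm22068 group. With DESeq2 they were −0.020 for Mir93, 0.58 for the Rnu3b1 group, 0.26 for Gm23212 and 0.72 for the Gm22068 group. With miRNA reads as library size they were −0.042 for Mir93, −0.013 for the Mir103 pair and −0.019 for the Mir669c group. The Mir669c group stood at −0.024 with reads of 21 to 23 nt, Mir34a at 0.097 and the Gm24312 group at −0.10 with the replicate block, and 17-nt 5′-U at −0.031 over distinct sequences. Without single libraries the ranges were −0.57 to 0.0027 for Mir292, −0.14 to 0.51 for Mir92-1, −0.60 to 0.029 for Mir183, −1.20 to 0.13 for Mir290a, −0.28 to 0.45 for Mir93, −0.21 to 0.46 for the Mir103 pair, −0.61 to 0.15 for Mir293, −0.27 to 0.86 for Mir30d, −0.51 to 0.67 for Mir148a, −0.11 to 0.29 for the Mir669c group, −0.20 to 0.16 for Mir34a, −0.56 to 0.031 for the Rnu3b1 group, −1.02 to 0.25 for Gm23212, −0.32 to 0.23 for the Gm22068 group, −2.33 to 0.53 for Gm24452, −1.28 to 0.89 for the Gm24312 group, −3.56 to 7.73 for Gm26165, −9.30 to 3.35 for CT010467.1, −0.17 to 0.33 for 17-nt 5′-U, −0.15 to 0.66 for 25-nt 5′-U and −2.11 to 0.60 for 43-nt 5′-U. The cause was not tested for any of these reversals. The other features chosen by the naming rules kept their sign in the fits that gave them a value, and further features in the text were not compared across these fits. Ratios of summed shares crossed 1 without single libraries, with 0.852 to 1.38 for miRNA, 0.439 to 1.27 for snoRNA and 0.386 to 1.41 for 31–43 nt among them. Medians over all tested features ranged over the alternatives from −0.89 to 1.12 for miRNA groups, −2.37 to 0.60 for other small RNAs and −0.44 to 0.26 for classes, against 0.096, −0.27 and −0.13. Depth limits features with few reads, where 3 counts are taken as the floor.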
